A study of Mus musculus with 14 samples.

Results

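The 300 most abundant 3' ends of 3T3 cells, a mouse fibroblast line, were taken from a table of 33590 poly(A) sites, the positions where mRNAs are cleaved and given a poly(A) tail. Read counts of each control library were divided by the factor that the deposited header gives for it, the quotients of both controls were averaged, and the 300 sites with the highest mean were kept. Levels in the controls are therefore the criterion and not a result.

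Reads came from 2P-Seq, which primes on the poly(A) tail and sequences from it, so that a count belongs to an mRNA's 3' end. Treated cells received 10 µg/ml actinomycin D and gave 1 library at each of 1, 2, 4 and 8 h. Steady-state control cells gave 2, and 6 came from the fractions of 1 sucrose gradient, whose columns are named 0, 1, 2.5, 4.5, 7.5 and 12. These names give ribosomes per mRNA: the authors' ribosome number of each site equalled their mean weighted by the scaled counts at 30164 of 30164 sites within 1e-06. The study asked how the choice of 3' end goes with mRNA stability and translation.

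A gene can have several poly(A) sites, so its mRNAs can share a coding region and differ in the 3' untranslated sequence, which holds binding sites for microRNAs and RNA-binding proteins. Actinomycin D blocks transcription, so mRNAs made before the drug decay without replacement and short-lived ones are lost first. In a sucrose gradient an mRNA sediments further the more ribosomes it carries, and mRNA without ribosomes stays near the top.

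The members passed the authors' read filter and the minimum of 60 counts without exception. The number of ends per chromosome was highest on chromosome 11, with 42 of the 300 (14%, against 8.70% of all ends that pass the filter), followed by chromosome 15 with 28 (9.33%, against 4.06%). The plus strand held 156 and the minus strand 144. No gene name is paired with a site in the file, so ends are given by mm9 position and no marker of the cell line could be checked.

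The control mean ran from 2861 scaled counts at the least abundant member to 65401 at the most abundant, with a median of 4601. The cut fell in a dense range. The last members were an end on chromosome 15 (plus strand, 102329318) with 2860.8 and an end on chromosome 2 (plus strand, 163844322) with 2860.6 scaled counts. The first ends left out were on chromosome X (minus strand, 35772685), with 2855.5, and on chromosome 2 (plus strand, 155076008), with 2849.6. Chosen by control 1 alone or by control 2 alone, 284 and 281 of the 300 would have been the same. The log2 ratio of control 1 to control 2 had an SD of 0.31 among the members and ran from -1.005 to 1.21, and over all 8285 ends with at least 200 control reads its SD was 0.42. Membership near the cut is thus set by differences smaller than the spread between the controls.

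The most abundant end lay on chromosome 19 (minus strand, 34316013). It held 11717 and 8906 CPM (counts scaled to the library total) in the controls and 12319, 16360, 18938 and 16060 CPM at 1, 2, 4 and 8 h. Over the gradient it held 2661, 1262, 2036, 1956, 5684 and 7612 CPM in the fractions named 0 to 12. It was thus low in the light fractions and highest in the heaviest. An end on chromosome X (minus strand, 163645025), the fourth by rank, had the opposite profile, with 12261, 57260, 32111, 6321, 2762 and 2597 CPM in the fractions named 0 to 12. Its level was 6812 and 8791 CPM in the controls and 10281, 11011, 13867 and 17518 CPM at 1, 2, 4 and 8 h, so each treated library lay above both controls.

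The other eight of the 10 highest ends also differed in where they sedimented. On chromosome 3 (plus strand), the ends at 90409962 and 90418335 were highest in the fraction named 4.5, with 29339 CPM, and in the fraction named 2.5, with 25689 CPM. On chromosome 7 (plus strand, 13512033) and chromosome 11 (plus strand, 48619586) the highest CPM was in the fraction named 0, with 26283 and 34313 CPM. The end on chromosome 2 (plus strand, 13504452) was highest in the fraction named 12, with 13686 CPM, and that on chromosome 15 (plus strand, 76736741) in the fraction named 1, with 15083 CPM. The ends on chromosome 17 (minus strand, 71343637) and chromosome 15 (plus strand, 78760623) peaked in the fraction named 4.5, with 9718 and 9954 CPM. With counts divided by the header factors some peaks moved. The ends on chromosome 7 and chromosome 11 were then highest in the fraction named 1, with 32.8% and 26.9% of their scaled counts. They held 20.9% and 22.6% in that named 0. The ends at 90409962, 76736741 and 163645025 were then highest in the fraction named 2.5. No single gradient profile was shared by the most abundant ends on either scale.

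The 300 ends took a growing share of the library with time in actinomycin D. Both controls had 36.1% and 34.5% of their reads there, and the treated libraries 38.6%, 42.6%, 46.6% and 50.2% at 1, 2, 4 and 8 h. The Wilson 95% interval at 8 h was 50.1% to 50.2%. It covers counting error only, and PCR reads are not independent molecules. Each treated library lay above both controls, which differed from each other by less than any of the steps between treated libraries. The gain was not spread evenly over ranks. Ranks 1 to 10 held 8.24% at 1 h and 12.6% at 8 h, against 7.46% and 6.61% in the controls, and ranks 11 to 100 held 17.3% at 1 h and 23.3% at 8 h, against 16.2% and 15.5%. Ranks 101 to 300 held 13.1% at 1 h and 14.3% at 8 h, against 12.5% and 12.4%. Ranks 301 to 600 stayed between 9.93% and 10.3% in the controls and treated libraries. A share is relative: more mRNA at these ends and less elsewhere cannot be told apart, nor can fewer cells and less RNA per cell.

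Across the gradient the share fell with increasing ribosome number. The 300 ends held 49.7%, 46.9%, 39.2%, 34.5%, 30.5% and 30.3% of the counts in the fractions named 0, 1, 2.5, 4.5, 7.5 and 12. The lightest fraction was also the shallowest library, with 1663346 counts, and the heaviest the deepest, with 11575417. Depth and ribosome number cannot be told apart in that order. Ranks 101 to 300 held between 10.8% and 12.5% in the 6 fractions, while ranks 11 to 100 held 25.9% in the fraction named 0 and 13.01% in that named 12. Ranks 1 to 10 were highest in the fraction named 1, with 16.1%, and lowest in that named 12, with 4.94%.

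**Figure D1:**
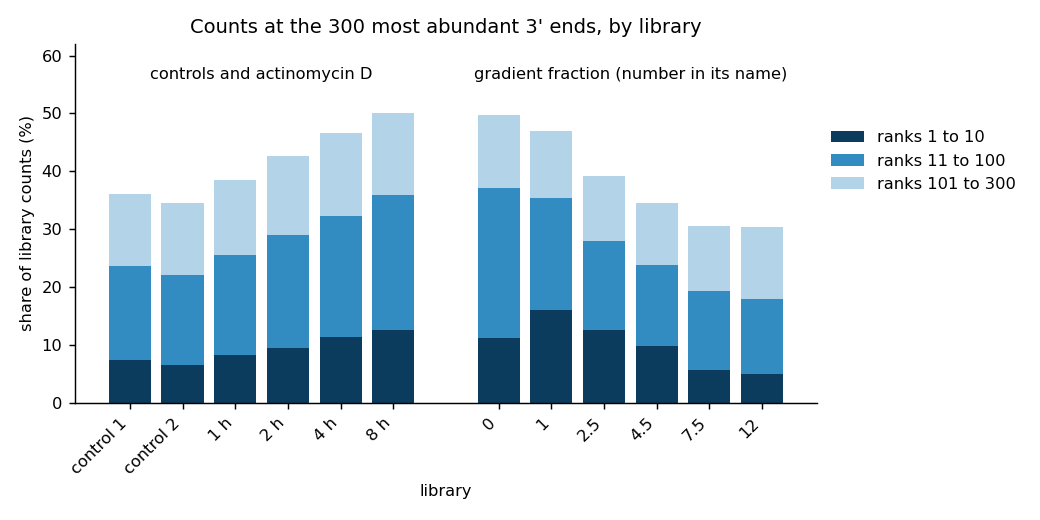
Share of each library's counts (%, vertical axis) at the 300 most abundant 3' ends, stacked by rank in the controls, for the controls, the 1, 2, 4 and 8 h actinomycin D libraries and the 6 gradient fractions by the number in their names. The stack reaches 50.2% at 8 h and 49.7% in the fraction named 0, against 30.3% in that named 12.

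To follow each end through the drug series without the libraries that chose it, a slope on hours was fitted over the 4 treated libraries only. With TMM scaling between libraries, most of the abundant ends were called rising and a minority falling. A rise here is relative to the other ends of the libraries and does not mean that mRNA accumulated. A line over 1 to 8 h also does not show losses before 1 h. Of the 300, 159 rose and 25 fell (edgeR quasi-likelihood test, TMM scaling, adjusted p under 0.05 over 13800 ends). Among all tested ends 15.1% rose and 20.4% fell. Among the members the median was 0.11 log2 per hour (middle 50% from 0.05 to 0.17), against -0.02 for all tested ends. The slope decreased down the ranking. It had a median of 0.19 log2 per hour in ranks 1 to 10, 0.14 in ranks 11 to 100, 0.10 in ranks 101 to 300 and 0.07 in ranks 301 to 600, of which 110 of 300 rose and 49 fell. In plain CPM, 177 of the 300 members (59.0%) were higher at 8 h than at 1 h, against 26.5% of all tested ends. The CPM of 37 members at 8 h was below 50% of that at 1 h, and that of 11 members exceeded 200%.

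The direction of a single end depends on how the libraries are scaled. With the factors of the file header the median over all tested ends moved to -0.16 log2 per hour, and 12 members rose while 93 fell, against 1.97% and 49.3% of all tested ends (11.4% of the member calls rising, against 86.4% with TMM). With library totals alone the median of all ends was -0.11, and 49 members rose while 52 fell (48.5% rising), against 4.42% and 37% of all. The gap between the medians of members and all ends was 0.13 log2 per hour with TMM, the header factors and library totals alike. Scaling shifts the slopes of all ends by nearly the same amount, so these settings could not test the gap. It did move in other fits. A minimum of 1 count gave 0.20, a minimum of 300 counts 0.09, and added controls 0.17. When single time points were dropped, it ran from 0.09 (1 h dropped) to 0.20 (8 h dropped). Without the 2 h library 104 members rose, of which 103 were among the 159, and 24 fell, against 11.01% and 17.3% of all ends tested. Each time point has 1 library, so the p-values reflect only how far these libraries scatter about a line, and that scatter may be technical.

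The authors' deposited table gives a half-life for 299 of the 300 ends. Its unit is not stated in the header and was read as hours, because the natural log of 2 over the value matched the decay rate of an exponential curve through the scaled counts, raised by 0.1 per h, to within 0.001 in 297 of the 299. On that scale an end without any fall has 6.93 h. The median in the authors' deposited table was 6.67 h for the members and 2.88 h for all ends that pass the filter. Of the members, 136 lay above 6.93 h and 163 below it. Half-lives under 2 h were given to 16 members (5.35%, against 33.7% of all ends that pass the filter), and half-lives of 16 h or more to 24 members (8.03%, against 2.77%). The table's half-life uses the controls, which chose the ends.

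**Figure D2:**
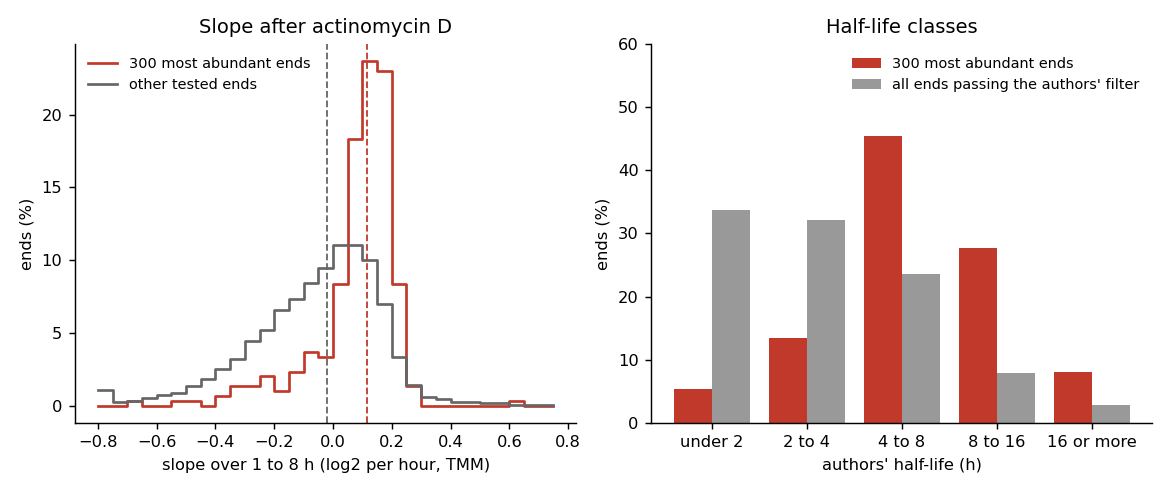
Left, distribution (% of ends) of the slope over 1 to 8 h of actinomycin D in log2 per hour for the 300 most abundant ends (red) and the other tested ends (grey), with dashed lines at the medians of 0.11 and -0.02 and values beyond 0.8 placed in the outermost bin. Right, share of ends (%) in classes of the authors' half-life in hours, where 45.5% of the abundant ends fall between 4 and 8 h, against 23.6% of all ends that pass the filter.

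A few of the most abundant ends were nearly gone by 8 h. An end on chromosome 15 (plus strand, 59162746) held 531 and 422 CPM in the controls and 281, 142, 31.7 and 7.66 CPM at 1, 2, 4 and 8 h. Its slope was -0.67 ± 0.06 log2 per hour (SE, edgeR adjusted p = 1.59e-04), the steepest fall among the members over the 4 times. Without the 8 h library its slope was -0.91, and the end on chromosome 12 at 70474767 fell faster, at -0.95. The end on chromosome 10 (plus strand, 21719682) lost most of its counts within the first hour. It held 752 and 731 CPM in the controls and 60.2, 19.5, 13.3 and 5.44 CPM at those times (slope -0.37 ± 0.07, SE, edgeR adjusted p = 0.00373), and with the controls added at 0 h its slope was -0.89 (edgeR adjusted p = 0.0571). The slope was -0.23 when the 1 h library was left out and -0.56 when the 8 h library was left out. The authors' deposited table gives a half-life of 0.274 h to this end and of 0.271 h to its larger neighbour 23 nt away. Ends were named by slope over 1 to 8 h, which can pass over early losses. One such end, also on chromosome 10 (plus strand, 17445471), had 3825 and 3712 reads in the controls. After the drug it had 463, 58, 30 and 33 reads at 1, 2, 4 and 8 h.

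The other named falls were less steep over the 4 times. On chromosome 12 (plus strand, 70474767) the end held 640 and 531 CPM in the controls and 322, 86.2, 31.5 and 17.8 CPM at the same times (slope -0.48 ± 0.11, SE, edgeR adjusted p = 0.0243). On chromosome 11 (plus strand, 62366707), 623 and 516 CPM in the controls stood beside 458, 222, 70.7 and 44.5 CPM at the 4 times (slope -0.37 ± 0.07, SE, edgeR adjusted p = 0.00354). On chromosome 15 (plus strand, 78860927) the values were 502 and 468 CPM in the controls and 316, 202, 86.6 and 16.1 CPM after the drug (slope -0.52 ± 0.04, SE, edgeR adjusted p = 9.23e-05). All 3 were below both controls in each treated library. With the 8 h library left out, the slope on chromosome 12 was -0.95 and that on chromosome 11 was -0.75. With the 1 h library left out, the slope on chromosome 12 was -0.30.

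The steepest rise was at an end on chromosome 15 (minus strand, 36538656). It held 640 and 276 CPM in the controls and 197, 807, 2435 and 4646 CPM after 1, 2, 4 and 8 h, with a slope of 0.65 ± 0.16 (SE, edgeR adjusted p = 0.0343). The 1 h library lay below both controls, the controls themselves differed more at this end than at any other member, and it is the only member without a half-life in the authors' deposited table. The adjusted p was 0.0645 with the header factors, 0.0572 with library totals, 0.238 with a minimum of 1 count and 0.0873 without the 2 h library, with slopes between 0.51 and 0.70 in these fits. Leaving out the 8 h library gave a slope of 1.26 and leaving out the 1 h library gave 0.46, both past the threshold. The next rises were less steep. An end on chromosome 6 (plus strand, 113339645) held 372 and 560 CPM in the controls and 490, 605, 802 and 1219 CPM after the drug (slope 0.28 ± 0.04, SE, edgeR adjusted p = 6.90e-04). On chromosome 14 (plus strand, 25315077) the end held 2100 and 3086 CPM in the controls and 3546, 4222, 5474 and 8069 CPM after the drug (slope 0.26 ± 0.04, SE, edgeR adjusted p = 0.00105). The ends on chromosome 12 (plus strand, 8945544) and chromosome 6 (plus strand, 4490965) had slopes of 0.26 and 0.28, and their 8 h levels were 3799 and 1061 CPM, against 1454 and 1639 CPM and 700 and 418 CPM in the controls. For each of these 4 ends the 8 h library was the highest of the drug series. With the header factors their slopes lay between 0.11 and 0.13, still past the threshold. At the end on chromosome 6 at 4490965 the slope was 0.54 with the 8 h library left out and 0.18 with the 1 h library left out. Its share of the pair with its larger neighbour at 4491008 was 14.4% at 1 h and also in control 2, but 26.4% in control 1.

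Over the gradient the members covered every class from nearly free of ribosomes to heavily loaded. With counts divided by the header factors, which the authors used to set the fractions on 1 scale, 6, 19, 53, 42, 46 and 134 of the 300 ends had their highest level in the fractions named 0, 1, 2.5, 4.5, 7.5 and 12. As shares these were 2%, 6.33%, 17.7%, 14%, 15.3% and 44.7%, against 0.698%, 1.36%, 22.1%, 14.7%, 16.7% and 44.5% of all 18484 ends with at least 60 counts. The heaviest class was thus as common among the members as among all ends. The classes of the fractions named 0 and 1 were small in both, but with these factors made up a larger share of the members than of all ends. In CPM, which gives each fraction the same total, the counts were 30, 23, 29, 48, 61 and 109, beside 6.56%, 8.98%, 12.2%, 15.6%, 22.0% and 34.6% of all ends. On that scale the class of the fraction named 1 made up a smaller share of the members than of all ends. The typical member had 4.22% of its scaled counts in the fraction named 0 and 25.3% in that named 12. In the fraction named 12 the middle 50% of members had between 10.3% and 48.6%, and single ends ran from 1.92% to 75.5%. The median of ribosomes per mRNA in the authors' deposited table was 6.66 for the members (middle 50% from 4.60 to 8.03) and 6.37 for all ends that pass the filter (middle 50% from 5.21 to 7.47).

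**Figure D3:**
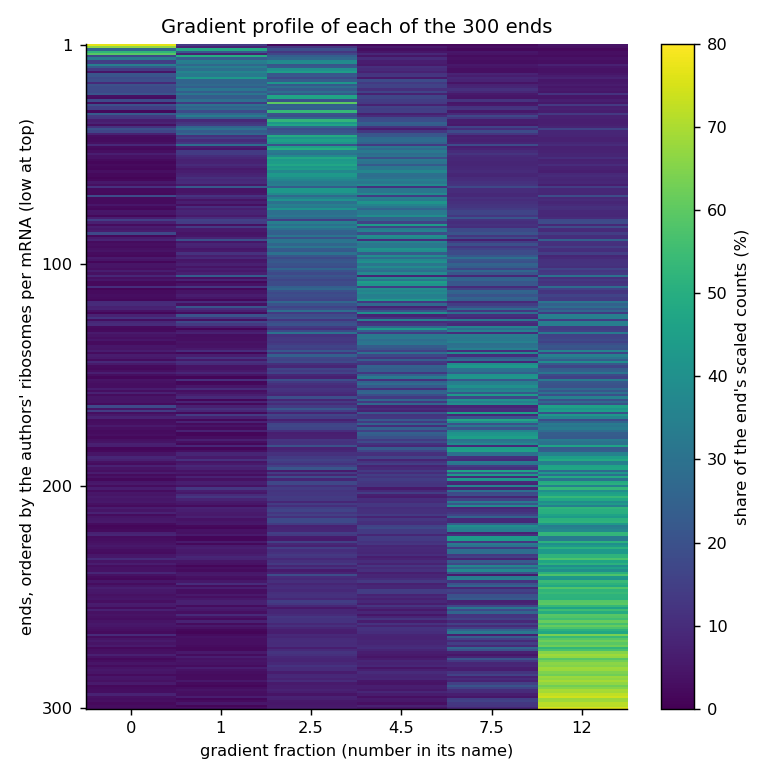
Share of each end's scaled counts (%, colour) in the 6 gradient fractions (horizontal axis, number in the name) for the 300 ends, 1 per line, ordered by the authors' ribosomes per mRNA. Ends with their highest level in the fraction named 12, of which there are 134, fill the bottom of the plot, and the 6 that peak in the fraction named 0 stand near the top.

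A slope over the 6 fractions in their order found falls among the members and no rise. Of the 300, 28 fell from the light to the heavy end (edgeR quasi-likelihood test, TMM scaling, adjusted p under 0.05 over 18484 ends), and 4.28% of all tested ends did. None of the 300 rose, against 0.438% of all tested ends. At an unadjusted p under 0.05, 23 members rose and 44 fell, beside 6.74% and 10.5% of all tested ends, and DESeq2 called 5 rising and 45 falling (1.04% and 7.16% of all tested ends). The median slope was 0.07 log2 per fraction for the members and 0.04 for all ends. Falls were 3 of the 10 highest ends, 13 of ranks 11 to 100 and 12 of ranks 101 to 300. With the header factors the median of all ends moved to 0.50 log2 per fraction, and 141 members rose and 9 fell (39.4% and 0.876% of all tested ends). With library totals it was 0.17, with 3 rising and 20 falling (2.4% and 2.77% of all). The number of falls was 7 without the fraction named 7.5, 13 without that named 1 and 13 without that named 12, beside 1.29%, 1.66% and 2.41% of all tested ends. Without the fraction named 0, 18 members rose and 35 fell, beside 3.82% and 7.59% of all tested ends.

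The steepest falls were of ends with their highest CPM in the fraction named 0 or in that named 1. An end on chromosome 19 (minus strand, 8962878) held 3025, 3286, 589, 103, 61.2 and 54.7 CPM in the fractions named 0 to 12. Its slope was -1.54 ± 0.26 log2 per fraction (SE, edgeR adjusted p = 7.64e-05). The end on chromosome 15 (minus strand, 36538656) that rose most after actinomycin D held 11785, 1224, 83.4, 75.9, 107 and 156 CPM (slope -1.36 ± 0.24, SE, edgeR adjusted p = 1.29e-04). It had 76.6% of its scaled counts in the fraction named 0, the highest share among the members.

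On chromosome 1 (plus strand, 162968667) the highest fraction was that named 1, with 10368 CPM, beside 5999 CPM in the fraction named 0 and 221 CPM in that named 12 (slope -1.39 ± 0.27, SE, edgeR adjusted p = 7.35e-04). On chromosome 19 (plus strand, 10059604) the levels were 6477, 465, 340, 159, 99.04 and 84.1 CPM (slope -1.32 ± 0.22, SE, edgeR adjusted p = 5.10e-05). On chromosome 17 (plus strand, 24858873) they were 4415, 1102, 284, 122, 133 and 68.2 CPM (slope -1.29 ± 0.22, SE, edgeR adjusted p = 7.65e-05). In all 5 ends the 3 fractions named 4.5, 7.5 and 12 lay below the 2 lightest. Without the fraction named 0 the slope of the end on chromosome 15 was -0.82 and that of the end on chromosome 19 at 10059604 was -0.78, and with the header factors they were -0.85 and -0.82, with -0.79 for the end on chromosome 17, all past the threshold.

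Among the members, ends of light and heavy fractions differed in their slopes over hours with TMM scaling. Of the 28 members that fell over the gradient, 27 rose over hours and 0 fell, with a median of 0.19 log2 per hour, and of the other 272 members 132 rose and 25 fell, with a median of 0.10. By the fraction of the highest scaled level, the 6 members that peaked in the fraction named 0 all rose (median 0.22 log2 per hour), and 18 of the 19 that peaked in that named 1 did (median 0.16). Of the 134 that peaked in the fraction named 12, 51 rose and 15 fell (median 0.08). None of the 25 members that fell over hours peaked in the 2 lightest fractions. These calls over hours hold for TMM scaling, and with the header factors 12 of the 300 members rose and 93 fell. The matching counts among all tested ends with the same gradient call or peak were not taken, so no background stands beside them. Whether the difference is particular to the members was not tested. Across the 300 ends, the slope over hours went with ribosomes per mRNA at Pearson's r of -0.29 (Spearman's rho -0.36), and across 13794 tested ends both were -0.14. These correlations are across ends, which share the same libraries and scaling and are not independent, and describe the table only.

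**Figure D4:**
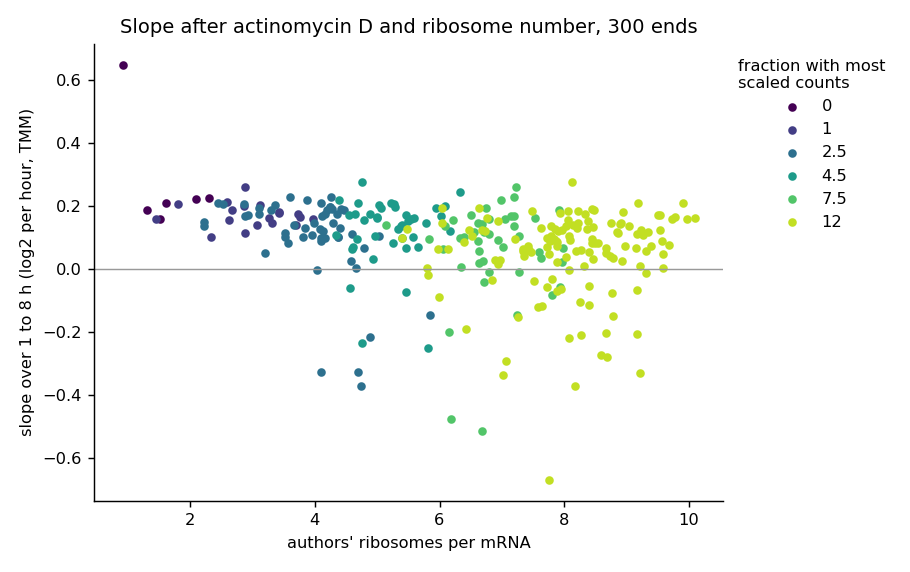
Slope over 1 to 8 h of actinomycin D in log2 per hour (vertical axis) against the authors' ribosomes per mRNA (horizontal axis) for the 300 ends, 1 point each, coloured by the gradient fraction with the most scaled counts. All 6 ends that peak in the fraction named 0 lie above 0, and the end with the steepest fall over the 4 times, at -0.67, peaks in the fraction named 12.

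Many of the abundant ends had no other mapped 3' end nearby. Within 2000 nt on the same strand, 112 of the 300 (37.3%) had no neighbour, against 24.9% of all ends that pass the filter. Of the 188 with a neighbour, 93 had 1, 36 had 2 and 59 had 3 or more, up to 9. In 171 neighbourhoods the member was the largest end, and 17 members lay beside a larger member. Medians at the 112 ends without neighbours were a slope of 0.13 log2 per hour and 6.00 ribosomes per mRNA, and at the 171 largest ends with neighbours 0.11 and 6.79.

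Where a member was the largest end, the minor ends around it usually added little. In the controls their summed share of the neighbourhood had a median of 4.24% (middle 50% from 0.713% to 15.7%). Among 5727 other largest ends with at least 60 control reads the median was 15.04% (middle 50% from 4.06% to 36.1%). The minor share was below 1% at 53 members, 1% to 10% at 58, 10% to 50% at 53, and 50% or more at 7, with a maximum of 60.7%. Since the members were chosen for a high control count, a low minor share in the controls follows in part from the choice. The largest neighbour lay upstream at 101 of the 171 members (59.1%) and downstream at 70, and it lay upstream at 58.9% of the other largest ends.

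Distances to the largest neighbour were put into 3 classes. The largest neighbour was 21 to 49 nt away at 61 members (35.7%, against 17.9% of other largest ends), 50 nt to under 500 nt away at 68, and 500 nt or more away at 42. Close neighbours carried more of the counts, with a median minor share of 9.13%, against 1.85% and 2.44% in the middle and the far group. The sources used here do not say how reads were divided between ends a few nt apart. At 1 pair on chromosome 16 (minus strand, 96343202 and 96343180), both among the 300, the counts of the 2 ends differed by at most 14 reads in any library, while they ran from 909 to 19846, and whether the same reads stand at both was not tested.

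The summed minor share behaved differently when pooled and when taken as a median. Pooled over the 171 neighbourhoods it was 12.8% and 12.2% in the controls, 12.2%, 12.3%, 12.2% and 12.4% at 1, 2, 4 and 8 h, and 10.7%, 7.62%, 8.60%, 9.93%, 12.7% and 14.3% in the fractions named 0 to 12. The median over neighbourhoods, in which each counts alike, was 4.41% and 3.70% in the controls, 4.08%, 4.504%, 5.00% and 5.77% at 1, 2, 4 and 8 h, and lay between 3.62% and 4.55% in the 6 fractions. The pooled share was lowest in the fraction named 1 and highest in that named 12, an order the medians did not show. With neighbours under 50 nt left out, an alternative chosen after seeing the data, the pooled share was 5.95% at 8 h, against 6.13% and 6.14% in the controls, and 3.92% and 9.49% in the fractions named 1 and 12.

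The dominant end was then set against the sum of its neighbours within each library. Of 144 members with enough counts over hours, 4 dominant ends fell against their neighbours, against 0.409% of 3177 ends tested, and none rose, against 0.063% (edgeR quasi-likelihood interaction, adjusted p under 0.05). At an unadjusted p under 0.05, 38 fell and 13 rose, beside 12.8% and 6.11% of all tested ends, and DESeq2 called 16 and 2 (3.12% and 0.692% of all tested ends). The median difference in slope was -0.03 log2 per hour for the members and -0.02 for all ends tested. The calls were not stable: without the 2 h, the 4 h or the 8 h library no member was called, and without the 1 h library 31 fell and 10 rose, beside 7.11% and 2.85% of all tested ends.

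In the 3 steepest calls a faint upstream end held a growing part of the neighbourhood. On chromosome 19 (plus strand) the member at 8800931 has a neighbour at 8800788, whose share was 0.873% and 0.606% in the controls and 0.161%, 0.348%, 0.749% and 2.13% at 1, 2, 4 and 8 h, from 4, 9, 15 and 48 reads (slope difference -0.46 ± 0.06, SE, edgeR adjusted p = 0.0468). On chromosome 3 (plus strand) the neighbour at 90418229 of the member at 90418335 held 0.544% and 0.197% in the controls and 0.186%, 0.264%, 0.709% and 1.49% after the drug (-0.43 ± 0.05, SE, edgeR adjusted p = 0.0468). On chromosome 11 (plus strand) the neighbour at 54683948 of the member at 54683992 held 0.278% and 0.082% in the controls and 0.119%, 0.148%, 0.368% and 0.838% after the drug (-0.40 ± 0.05, SE, edgeR adjusted p = 0.0468). In each, the 8 h share was above both controls and the 1 h share was below the higher control. With the controls added at 0 h the difference was -0.24 on chromosome 19 (edgeR adjusted p = 0.125) and -0.32 on chromosome 3 (edgeR adjusted p = 0.0565), both no longer called. Leaving out the 8 h library gave -0.66 on chromosome 3 (edgeR adjusted p = 0.286) and -0.57 on chromosome 11 (edgeR adjusted p = 0.307). The edgeR adjusted p of all 3 was 0.0556 with the 2 h library left out and 0.086 with the 4 h library left out.

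Over the gradient 1 dominant end rose against its neighbours and 1 fell, of 142 members tested, beside 0.154% and 0.221% of 4533 ends. At an unadjusted p under 0.05, 16 rose and 16 fell, beside 7.92% and 5.23% of all tested ends, and DESeq2 called 4 and 3 (0.772% and 0.684% of all tested ends). The member on chromosome 12 (plus strand, 8945544) gained on its upstream neighbour at 8945031, whose share was 5.23%, 4.84%, 3.15%, 2.21%, 1.87% and 1.52% in the fractions named 0 to 12 (0.40 ± 0.04 log2 per fraction, SE, edgeR adjusted p = 0.00731). The member on chromosome 19 (plus strand, 9052669) lost to its downstream neighbour at 9052953, whose share was 0.357%, 0.437%, 0.700%, 0.728%, 0.978% and 0.925% (-0.30 ± 0.05, SE, edgeR adjusted p = 0.0485). Neither was called without the fraction named 1 or without that named 7.5. The fall was also lost without the fractions named 0, 2.5 or 4.5.

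In 17 pairs both ends were among the 300, of which 13 lay 21 to 43 nt apart and 4 lay 264 to 1063 nt apart. The smaller end was upstream in 12 pairs and downstream in 5. The 5 members with the highest share of counts at neighbours, 75.3% to 87.7% in the controls, were the smaller ends of such pairs. Among the close pairs the smaller end's share of its pair varied over the 12 libraries by a median of 6.35 percentage points. The widest, 16.5 points, was on chromosome 6 (plus strand, 4491008 and 4490965), where the smaller end held 26.4% and 14.4% in the controls and 14.4%, 29.6%, 30.3% and 29.6% at 1, 2, 4 and 8 h. The 2 controls differed from each other there, as did the 1 h library from the later ones. Control 2 was as low as the 1 h library, and control 1 lay nearer the later times.

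The 4 distant pairs varied by 11.1 to 65.8 points. On chromosome 15 (plus strand) the end at 78859864, 1063 nt upstream of that at 78860927, held 47.9% and 51.1% of the pair in the controls and 59.9%, 76.1%, 79.96% and 89.9% at 1, 2, 4 and 8 h. Over the fractions named 0 to 12 it held 53.7%, 50.1%, 40.1%, 28.1%, 24.1% and 28.9%. Against all its neighbours the end at 78860927 had a slope difference of -0.33 ± 0.06 log2 per hour (SE, edgeR adjusted p = 0.101) and of 0.36 ± 0.06 log2 per fraction (SE, edgeR adjusted p = 0.0515). Neither passed the threshold. On chromosome 18 (minus strand) the end at 52676675, 955 nt upstream of that at 52675720, held 48.3% and 45.2% in the controls, 46.6%, 54.0%, 55.7% and 62.3% at 1, 2, 4 and 8 h, and 31.2% to 44.5% over the fractions. On chromosome 6 (plus strand) the end at 67234304, 264 nt downstream of that at 67234040, held 32.4% and 30.9% in the controls, 33.5%, 28.1%, 27.7% and 26.4% after the drug, and 39.0% to 46.2% over the fractions. On chromosome 17 (minus strand) the end at 35970870, 881 nt downstream of that at 35971751, moved without order, between 16.8% and 27.8%. These pairs were chosen after their values were seen.

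**Figure D5:**
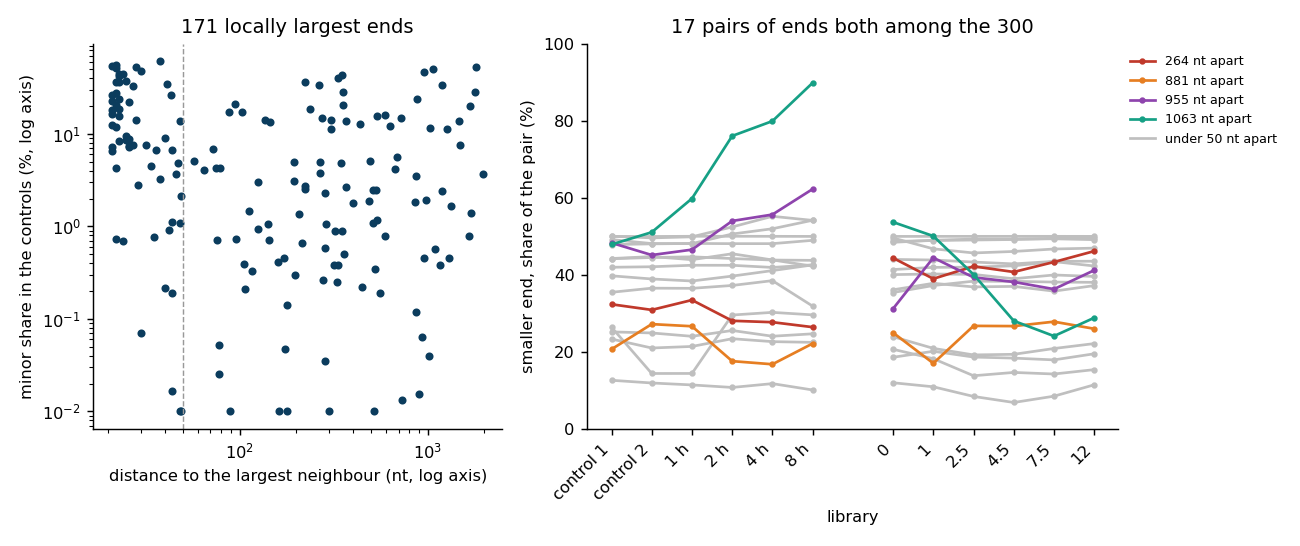
Left, summed share of the neighbouring ends in the controls (%, log axis, values under 0.01 drawn at 0.01) against the distance to the largest neighbour (nt, log axis) for the 171 members that are the largest end of their neighbourhood, with a dashed line at 50 nt. Right, share of the smaller end in its pair (%) in each library for the 17 pairs with both ends among the 300, where the pair 1063 nt apart reaches 89.9% at 8 h and 24.1% in the fraction named 7.5.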

How the data were processed

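The deposited table holds raw read counts per poly(A) site, which the authors annotated from 3P-Seq in 3T3 and mouse ES cells, with mm9 positions and 1 factor per library to divide by, per the file headers. Bowtie is named as a tool in the submitters' processing notes, without a version. The authors' half-life and ribosomes per mRNA are deposited as a score per site. The library totals ran from 1663346 to 11575417 counts. The series has 14 samples, of which the 2 3P-Seq libraries were not used here. The column names of the gradient carry ribosome numbers, so their match to fraction numbers in the labels was not needed.

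Slopes were fitted with edgeR 4.0.16 (quasi-likelihood F test, robust, TMM) in R 4.3.3 over all ends with at least 60 counts, on hours 1 to 8 or on fraction order 1 to 6, with Benjamini-Hochberg adjustment over all ends tested and calls at 0.05. Pairs, with at least 60 counts on each side, had library terms and an end by slope interaction. DESeq2 1.42.0 was an alternative. Summaries used Python 3.11.15 and pandas 2.3.3. The scripts were tested on simulated data. CPM and shares use library totals. Scaled counts are counts over the header factor.

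The members, the lists of ends and the tests were chosen with earlier results of these data known. Named were the 10 most abundant ends, the 2 on each side of the threshold, the 5 lowest and 5 highest called slopes in each test, the 5 highest minor shares, and up to 3 called pairs per direction. Gene names and sequences at the ends were not used, because no mm9 annotation or genome was used here. Whether the 2 controls are separate cultures is not stated in the labels.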

Additional observations from a re-analysis of the deposited data

How the results depend on the processing

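No paired analysis was possible because each time and each fraction has 1 library, so the groups compared share fewer than 2 replicate numbers. Limits: the drug series and the gradient were each run once, and the direction of a slope rests on the scaling. None of the ends named for a called slope changed its sign under an alternative run. The slopes over hours and over the gradient of the 10 most abundant ends were not followed through these runs. The balance of rising and falling members turned over with the header factors.

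Over hours, RLE factors, DESeq2, other count minimums and added controls left both counts of members within 1.5 times, while the header factors gave 12 rising and 93 falling and library totals 49 and 52. Leaving out a library gave 104 to 152 rising and 17 to 31 falling, beside 10.2% to 16.7% and 14.3% to 21.2% of all tested ends. Over the gradient DESeq2 gave 5 rising and 45 falling, the header factors 141 and 9, and library totals 3 and 20. The ribosome number as covariate gave 2 and 24, beside 0.985% and 5.38% of all tested ends. Leaving out a fraction gave 0 to 18 rising and 7 to 35 falling, beside 0.0462% to 3.82% and 1.29% to 7.59% of all tested ends.

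For dominant ends over hours, DESeq2 gave 2 rising and 16 falling, neighbours within 500 nt 0 and 0, and the largest neighbour only 0 and 0. Neighbours within 5000 nt gave 2 and 4, beside 0.289% and 0.838% of all tested ends. A minimum of 1 count gave 1 and 5 (0.0872% and 0.407% of all). A minimum of 300 counts gave 1 and 2 (0.379% and 0.833%). Added controls gave 3 and 19 (1.40% and 3.85%). Leaving out a library gave 0 to 10 and 0 to 31 (0% to 2.85% and 0% to 7.11%). Over the gradient, DESeq2 gave 4 rising and 3 falling. Neighbours within 500 nt gave 0 and 0, beside 0.0272% and 0.0272% of all tested ends, and within 5000 nt 2 and 1 (0.355% and 0.397%). A minimum of 1 count gave 4 and 3 (0.477% and 0.408%), and a minimum of 300 counts 1 and 0 (0.122% and 0.245%). The largest neighbour only gave 1 and 0 (0.0934% and 0.140%). Leaving out a fraction gave 0 to 3 and 0 to 3 (0% to 0.446% and 0% to 0.401%). The cause of these differences was not tested. The adjusted p of the 3 pairs named over hours was 0.0927 with neighbours within 500 nt and 0.0843 with the largest neighbour only, and with controls at 0 h added it was 0.125 on chromosome 19 and 0.0565 on chromosome 3. A slope per ribosome is on another scale than a slope per fraction, so the 2 were compared by calls alone.

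The share of the 8 h library was 49.7% to 49.9% with members chosen by 1 control, 35.9% for 100 ends, 68.6% for 1000 ends, 50.4% of the ends passing the authors' filter, and 48.5% without the 13 members under 50 nt from a larger member, a setting chosen after seeing the data. The fraction named 0 gave 49.3% with either control, 37.2%, 64.6%, 50.1% and 48.1% for the same settings, and that named 12 gave 30.2% to 30.5%, 18.0%, 50.1%, 30.6% and 29.3%. The pooled minor share at 8 h was 11.7% within 500 nt, 11.2% within 5000 nt, 11.9% to 12.5% with 1 control, and 5.95% without neighbours under 50 nt, and in the fraction named 12 it was 13.3%, 13.9%, 13.9% to 14.9% and 9.49%. Chosen by 1 control, the median half-life was 6.53 to 6.71 h and ribosomes per mRNA 6.68 with either control.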
